A study of Mus musculus with 11 samples.

Results

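Collagen genes encode the alpha chains of the triple-helical proteins that carry the load of the extracellular matrix. The genes described here are the protein-coding mouse genes whose symbol follows the pattern Col, a type number, a and a chain number, and they were chosen by that symbol alone. There were 44 of them among the 35584 genes of the deposited count table, of which 11 encode fibrillar chains, 6 type IV, 6 type VI and 9 fibril-associated chains, 2 multiplexins, 3 short-chain, 4 transmembrane and 3 other chains. RNA of whole hearts from male mice aged 8 to 12 weeks was sequenced in 11 libraries of 4 groups, to compare hearts depleted of macrophages, or labelled as without Mertk or the liver X receptors, with wild-type hearts. Macrophage-depleted mice (n = 3 libraries) carried the diphtheria toxin receptor in the CD169 locus, which directs it to CD169-expressing macrophages, and were given toxin at 0.01 µg per g for 3 weeks, with a depletion of 21 days by the labels. Mertk-KO mice (n = 2) are labelled as knockouts of the phagocytic receptor Mertk and LXR-DKO mice (n = 3) as double knockouts of both liver X receptors, and the labels do not say whether these animals were given toxin, so that genotype and toxin cannot be told apart in their comparisons with WT. Mice labelled WT (n = 3) were given the same toxin, so the Macrophage-depleted group differed from them in the allele and in the depletion, which cannot be told apart. Whether different libraries stem from different mice is not stated by any label, and the p-values below therefore describe the spread among libraries, some or all of which may be technical.

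As background, fibrillar collagens of types I, III and V assemble into the fibres of the cardiac interstitium, with type I giving stiffness, type III forming thin networks and type V starting fibrils and limiting their width. Type IV chains form the sheet of the basement membrane around cardiomyocytes, capillaries and smooth muscle, and type VI forms beaded filaments between that sheet and the fibres. In the adult heart fibroblasts make most of the fibrillar chains, while endothelial cells and pericytes add much of the type IV collagen.

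The libraries held 10938600 to 20722295 estimated reads. Siglec1, which encodes CD169, had 33.8, 2.12 and 0.719 normalised counts in Macrophage-depleted libraries 1, 2 and 3, against 64.3, 55.3 and 53.4 in the WT libraries, so depleted library 1 kept more of this transcript than the other depleted libraries and the counts and the leading genes of that comparison are also given without it. The summed level of 8 resident macrophage markers was 1484, 1185 and 491 normalised counts in the depleted libraries and 2165 to 2337 in WT. Mertk itself was at 75.7 and 89.4 normalised counts in Mertk-KO hearts and at 130 to 147 in WT hearts, and no label gives the deleted exons. In depleted libraries Mertk had 125, 93.3 and 75.4 normalised counts, so its level does not set the libraries labelled Mertk-KO apart from every other group. The liver X receptor genes Nr1h3 and Nr1h2 had 25.9 to 29.0 and 85.2 to 99.6 normalised counts in LXR-DKO libraries, against 155 to 173 and 525 to 543 in WT. In the TPM table the gap was smaller, with 17.0, 16.2 and 19.5 TPM of Nr1h2 in LXR-DKO and 26.0 to 31.8 TPM in WT libraries.

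The start regions of Col5a3 and of 2 of the 3 pairs of type IV genes are shown because the type IV genes lie in pairs that start back to back and because Col5a3 and the pair Col4a1 and Col4a2 had the smallest p-values for a difference between Macrophage-depleted and WT hearts. Each window runs from 250 bases before to 50 bases after a RefSeq start (GRCm38.p6), written 5′ to 3′ on the strand of the gene, with capitals marking a GC box (GGGCGG or, on the other strand, CCGCCC) or a CCAAT box (CCAAT or ATTGG). Col5a3 (chr9:20815018-20815317, minus strand) held 3 GC boxes and 1 CCAAT box, Col4a2 (chr8:11312555-11312854, plus strand) held 3 and 1, and Col4a1 (chr8:11312777-11313076, minus strand) held 1 and 1. The Col4a1 and Col4a2 windows overlap, and the GC box of the Col4a1 window is the last GC box of the Col4a2 window read on the other strand. The window of Col4a4 (chr1:82586800-82587099, minus strand) also contains the annotated start of Col4a3 and held neither motif.
Col5a3: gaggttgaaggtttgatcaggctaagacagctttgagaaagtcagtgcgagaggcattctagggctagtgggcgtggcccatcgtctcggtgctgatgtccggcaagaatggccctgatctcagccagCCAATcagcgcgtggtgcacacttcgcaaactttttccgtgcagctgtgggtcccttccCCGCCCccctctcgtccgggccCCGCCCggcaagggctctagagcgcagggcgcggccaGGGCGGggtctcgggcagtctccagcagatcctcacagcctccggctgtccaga
Col4a1: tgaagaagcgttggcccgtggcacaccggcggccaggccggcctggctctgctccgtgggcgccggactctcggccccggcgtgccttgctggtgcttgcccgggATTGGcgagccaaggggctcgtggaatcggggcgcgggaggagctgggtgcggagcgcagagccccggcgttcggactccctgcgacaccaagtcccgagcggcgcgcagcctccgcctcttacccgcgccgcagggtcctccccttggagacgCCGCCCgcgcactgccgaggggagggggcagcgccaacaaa
Col4a2: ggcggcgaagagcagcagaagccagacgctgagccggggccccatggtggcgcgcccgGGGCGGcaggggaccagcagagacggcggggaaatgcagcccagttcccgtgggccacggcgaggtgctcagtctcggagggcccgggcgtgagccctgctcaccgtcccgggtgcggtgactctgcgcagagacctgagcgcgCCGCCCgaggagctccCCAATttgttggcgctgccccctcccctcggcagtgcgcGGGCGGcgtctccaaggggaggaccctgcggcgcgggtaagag
Col4a4: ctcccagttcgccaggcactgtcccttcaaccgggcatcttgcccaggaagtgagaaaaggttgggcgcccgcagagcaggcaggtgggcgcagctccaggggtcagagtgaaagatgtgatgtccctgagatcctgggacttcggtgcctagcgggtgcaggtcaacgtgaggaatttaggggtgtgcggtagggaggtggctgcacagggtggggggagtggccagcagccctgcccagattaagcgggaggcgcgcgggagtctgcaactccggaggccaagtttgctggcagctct

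Windows were found for 35 of the 44 collagen genes, and 23 of their 38 windows held a GC box and 13 a CCAAT box. Among all 32851 windows of the RefSeq table, 35.7% held a GC box and 37.4% a CCAAT box. These matches describe the letters of a window and not binding.

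Per unit of transcript length, few genes made up most of the collagen RNA of these hearts. On the TPM scale Col4a1 was highest, with a mean of 104 TPM over the 11 libraries, followed by Col3a1 (83.1 TPM), Col4a2 (66.5 TPM), Col1a2 (31.6 TPM), Col15a1 (31.2 TPM), Col6a2 (27.2 TPM), Col6a1 (25.5 TPM) and Col1a1 (22.7 TPM). The order differed between libraries, and in depleted library 2 Col3a1 (94.4 TPM) was above Col4a1 (71.9 TPM). These 8 genes held 84.0% of the summed collagen TPM. Of the 44 genes, 32 averaged at least 10 normalised counts and were tested, namely 8 fibrillar, 6 type IV, 4 type VI and 5 fibril-associated chains, both multiplexins, 2 short-chain, 2 transmembrane and 3 other chains. The 12 genes below that level were Col2a1, Col11a1, Col24a1, Col6a4, Col6a5, Col9a1, Col9a2, Col9a3, Col10a1, Col17a1, Col19a1 and Col25a1, most of which are known from cartilage, skin or nerve. Col6a4 had no read in any library, which allows up to 2.12 to 4.22 normalised counts depending on the library, for counting error only, and Col25a1 had the highest mean of the 12, at 6.30 normalised counts.

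The summed collagen level was lowest in the Macrophage-depleted hearts, at 318, 432 and 304 TPM, against 528 and 437 TPM in Mertk-KO, 596, 565 and 408 TPM in LXR-DKO and 513, 524 and 508 TPM in WT hearts. All 3 depleted libraries lay below the WT libraries, 2 of them by a wide margin, while the Mertk-KO and LXR-DKO libraries lay on both sides of WT. Type IV chains summed to 118 ± 13.4 TPM in depleted hearts (SD, n = 3), 192 TPM in Mertk-KO (n = 2), 222 TPM in LXR-DKO and 201 ± 4.38 TPM in WT hearts. Fibrillar chains summed to 111, 176 and 104 TPM in depleted libraries 1, 2 and 3, against 175 to 191 TPM in WT, so that depleted library 2 lay within the WT range. In bulk tissue, fewer cells of a type and less RNA per cell cannot be told apart.

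**Figure D1:**
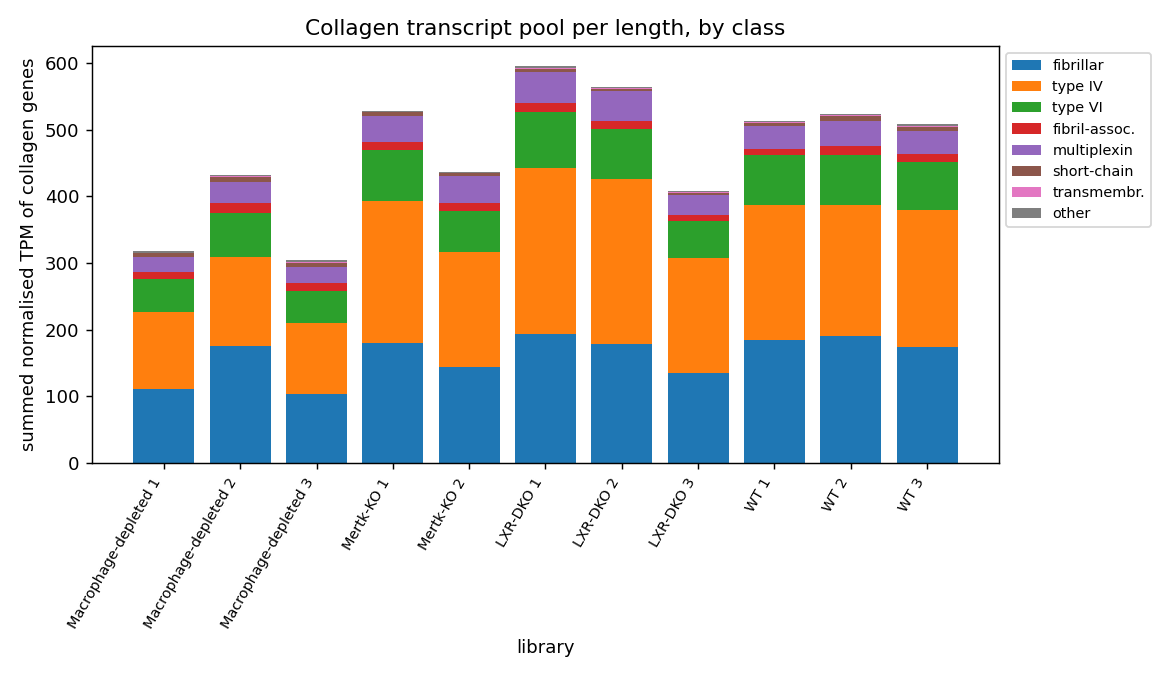
Summed normalised TPM of the collagen genes (y axis) in each of the 11 libraries (x axis), stacked by collagen class and starting at 0. The 3 Macrophage-depleted bars reach 304 to 432 TPM and the 3 WT bars 508 to 524 TPM, and the type IV part of the depleted bars is the shortest of the 4 groups.

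In Macrophage-depleted hearts against WT, 1 of the 32 tested collagens passed limma's test at an adjusted p below 0.05, and 0.238% of all 13884 genes tested did. At an unadjusted p below 0.05 there were 14 collagens, 12 lower and 2 higher, or 43.8% of the 32, against 7.53% of all genes. The depleted libraries were all below the WT libraries in 10 collagens, where 8.15% of all genes were placed so, and all above them in 3, where 8.51% of all genes were. The median log2 fold change of the tested collagens was -0.21, with 23 of 32 negative, beside 0.00 for all genes. Without depleted library 1 the median of the collagens was -0.09 and 8 had an unadjusted p below 0.05. Without depleted library 3, 7 had such a p, and without WT library 1, 9 did.

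Col5a3, a minor chain of type V collagen (ENSMUSG00000004098, GRCm38 chromosome 9, 20770050 to 20815067, minus strand), was the collagen that fell. It had 272, 241 and 231 normalised counts in Macrophage-depleted libraries, against 647, 457 and 484 in WT libraries. The groups did not overlap, and the highest depleted library was well below the lowest WT library. The means were 248 ± 21.2 and 529 ± 103 normalised counts (SD, n = 3 each), a log2 fold change of -1.08 (SE 0.16, limma adjusted p 0.0198). Without depleted library 1 the log2 fold change was -1.14 (limma adjusted p 0.0308). The call was lost without depleted library 2 (limma adjusted p 0.0923), depleted library 3 (0.0962), WT library 1 (0.105) or WT library 3 (0.0801), and in the TPM table (0.0689), with log2 fold changes of -0.92 to -1.13.

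Col5a3 had 491 and 583 normalised counts in Mertk-KO libraries and 768, 694 and 514 in LXR-DKO libraries. Both groups overlapped WT, with log2 fold changes of 0.03 and 0.31 (SE 0.18 and 0.16, limma adjusted p 0.926 and 0.489), so that neither differed from WT beyond the spread of the libraries. Set directly against these groups, Col5a3 was lower in depleted hearts by a log2 fold change of -1.11 against Mertk-KO (SE 0.18, limma adjusted p 0.00393) and -1.39 against LXR-DKO (SE 0.16, limma adjusted p 0.000902). Its ratio to Col5a1, the common chain of type V collagen, was 0.480, 0.377 and 0.388 on the TPM scale in depleted hearts and 0.942, 0.558 and 0.807 in WT hearts.

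The more abundant fibrillar chains did not pass the test in any comparison with WT. Col3a1, the chain of type III collagen, had 2135, 3930 and 1858 normalised counts in depleted libraries and 4256, 4302 and 3656 in WT libraries. Depleted libraries 1 and 3 lay far below WT and library 2 lay within its range, and the log2 fold change was -0.70 (SE 0.23, limma adjusted p 0.405). Without depleted library 2 it was -1.03 and passed (limma adjusted p 0.0410), which was the 1 alternative of 20 in which it did, and without depleted library 1 it was -0.59 (limma adjusted p 0.646). Col1a1, which encodes the main chain of type I collagen, had 1182, 1688 and 1211 normalised counts in depleted libraries and 1874, 1964 and 1632 in WT libraries (log2 fold change -0.44, SE 0.19, limma adjusted p 0.630, and -0.35 without depleted library 1). Its partner chain Col1a2 had 1714, 2311 and 1893 normalised counts in depleted libraries and 2135, 2374 and 1943 in WT libraries, with overlapping groups (-0.13, SE 0.15, adjusted p 0.963). The ratio of Col1a1 to Col1a2 was 0.594, 0.628 and 0.559 on the TPM scale in depleted hearts, below the 0.784, 0.722 and 0.739 of WT hearts in every library, and was 0.834 and 0.732 in Mertk-KO and 0.787, 0.798 and 0.693 in LXR-DKO hearts.

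**Figure D2:**
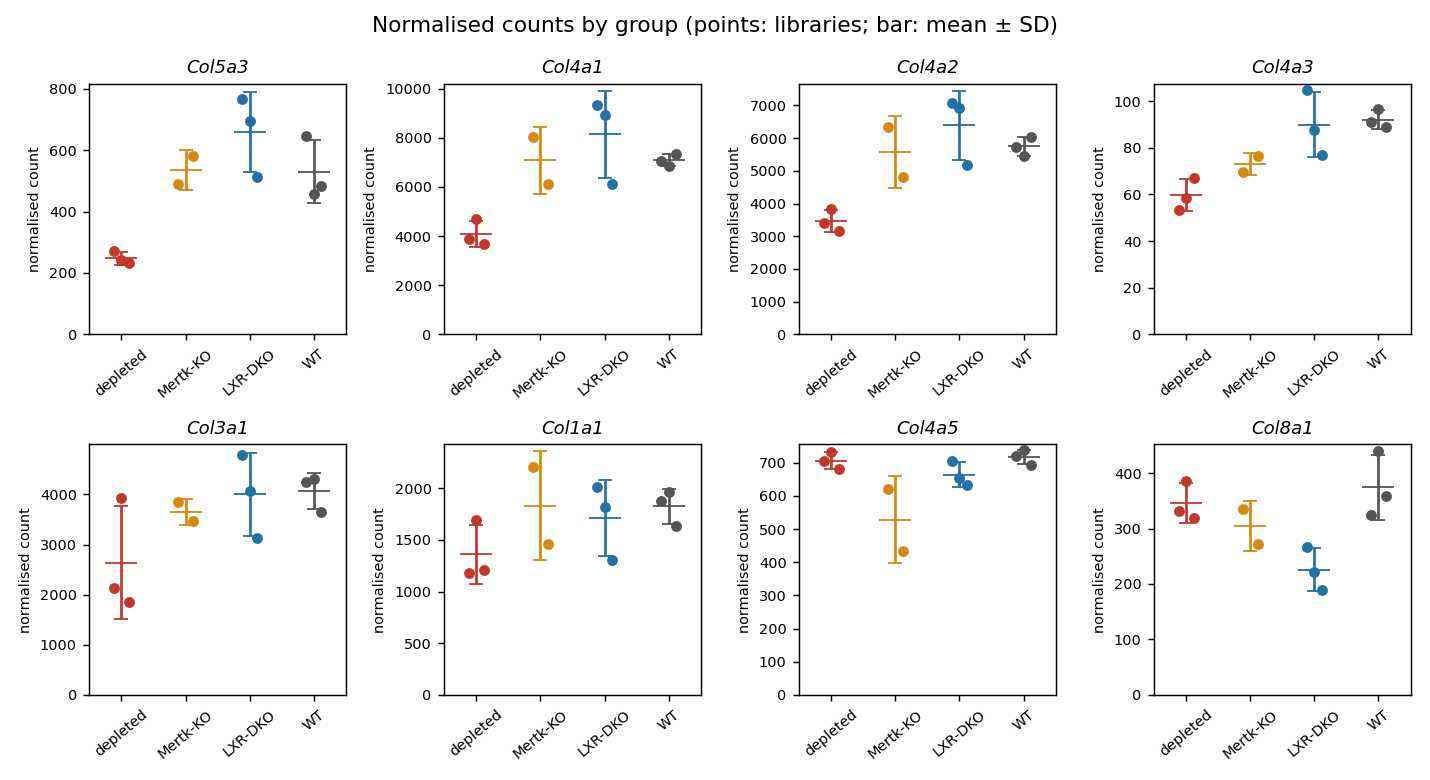
Normalised counts (y axes, starting at 0) of 8 collagen genes by group (x axes, n = 3, 2, 3 and 3 libraries from left to right), where points are libraries and bars the mean ± SD. Col5a3, Col4a1, Col4a2 and Col4a3 lie below every WT library in the depleted hearts, Col3a1 and Col1a1 have 1 depleted library in the WT range, Col4a5 is lower in Mertk-KO and Col8a1 in LXR-DKO hearts.

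Among the type IV chains, Col4a1 and Col4a2, which together form the ubiquitous network of basement membranes, had the next smallest p-values in depleted hearts, and none of the 6 type IV genes passed the test there. Col4a1 (GRCm38 chromosome 8, 11198423 to 11312826, minus strand) had 3899, 4675 and 3658 normalised counts in depleted libraries and 7056, 6856 and 7339 in WT libraries. Col4a2 (chromosome 8, 11312805 to 11449287, plus strand) had 3415, 3823 and 3156 in depleted libraries and 5744, 5467 and 6026 in WT libraries. In both genes all depleted libraries lay far below all WT libraries, and the 2 genes followed each other from library to library. The log2 fold changes were -0.80 (SE 0.16, limma adjusted p 0.0748) and -0.73 (SE 0.13, limma adjusted p 0.0545). Without depleted library 1 they were -0.78 and -0.72 (limma adjusted p 0.164 and 0.125), and of 20 alternatives Col4a1 passed in 6 and Col4a2 in 7.

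Against the other perturbed groups the same pair passed, in all 20 alternatives against LXR-DKO and in 17 of 20 each against Mertk-KO, where it was lost with only the 2 groups, with weights per library and without Mertk-KO library 1. Col4a1 had 8049 and 6110 normalised counts in Mertk-KO and 9350, 8940 and 6126 in LXR-DKO libraries, all above the depleted libraries, and fell in depleted hearts by 0.79 on the log2 scale against Mertk-KO (limma adjusted p 0.0115) and by 0.98 against LXR-DKO (limma adjusted p 0.00656). Col4a2 fell by 0.68 against Mertk-KO (limma adjusted p 0.0113) and by 0.87 against LXR-DKO (limma adjusted p 0.00531). Against WT, Col4a1 had log2 fold changes of -0.01 in Mertk-KO and 0.18 in LXR-DKO hearts, and Col4a2 of -0.06 and 0.14. The annotated genes overlap by 22 bases at their starts, and no source used here says whether strand was used in counting.

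The other type IV genes also lie in neighbouring pairs, and no difference between neighbours was tested. Col4a3, a chain of the specialised network found in kidney and lung and named here after its values were seen, had 53.5, 58.7 and 66.9 normalised counts in depleted libraries and 91.1, 96.5 and 89.0 in WT libraries (log2 fold change -0.62, SE 0.15, limma adjusted p 0.183). Its level in the TPM table was 0.81, 0.62 and 1.47 TPM in depleted libraries and 0.95, 1.01 and 0.87 TPM in WT libraries, so the separation seen in normalised counts was not present there (log2 fold change -0.04). Its head-to-head neighbour Col4a4, separated by 71 bases, had a log2 fold change of -0.06 (SE 0.11). On the X chromosome, Col4a5 and Col4a6 start 1308 bases apart and had log2 fold changes of -0.02 (SE 0.11) and 0.28 (SE 0.41) in depleted hearts.

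The type VI chains Col6a1, Col6a2 and Col6a3 form the common type VI monomer. In depleted libraries Col6a1 had 1027, 1284 and 967 normalised counts, against 1416, 1376 and 1371 in WT, and Col6a2 had 1010, 1278 and 915, against 1520, 1490 and 1442. For both genes every depleted library was below every WT library, with library 2 the nearest. The log2 fold changes were -0.36 for Col6a1 (SE 0.14), -0.49 for Col6a2 (SE 0.16) and -0.35 for Col6a3 (SE 0.16), and none passed limma's test (adjusted p 0.534, 0.405 and 0.636). Col6a6, a long chain related to Col6a3, went the other way, with 201, 182 and 229 normalised counts in depleted libraries and 172, 159 and 155 in WT libraries (log2 fold change 0.33, SE 0.15, adjusted p 0.650).

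Of the multiplexins, which sit in basement membranes and release antiangiogenic fragments, Col15a1 had 1082, 1512 and 1210 normalised counts in depleted libraries and 1814, 1802 and 1773 in WT libraries. The groups did not overlap and the log2 fold change was -0.52 (SE 0.15, limma adjusted p 0.338), or -0.41 without depleted library 1. Col18a1 had 148, 214 and 201 normalised counts in depleted libraries and 216, 245 and 184 in WT libraries, with overlapping groups (-0.20, SE 0.16). The minor fibrillar gene Col27a1, named after its values were seen, had 94.3, 101 and 123 normalised counts in depleted libraries and 91.2, 80.8 and 73.4 in WT libraries (0.37, SE 0.14, adjusted p 0.534), and the transmembrane gene Col23a1 had 36.6, 41.7 and 41.0 in depleted libraries and 29.8, 25.6 and 26.2 in WT libraries (0.53, SE 0.27, adjusted p 0.726).

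**Figure D3:**
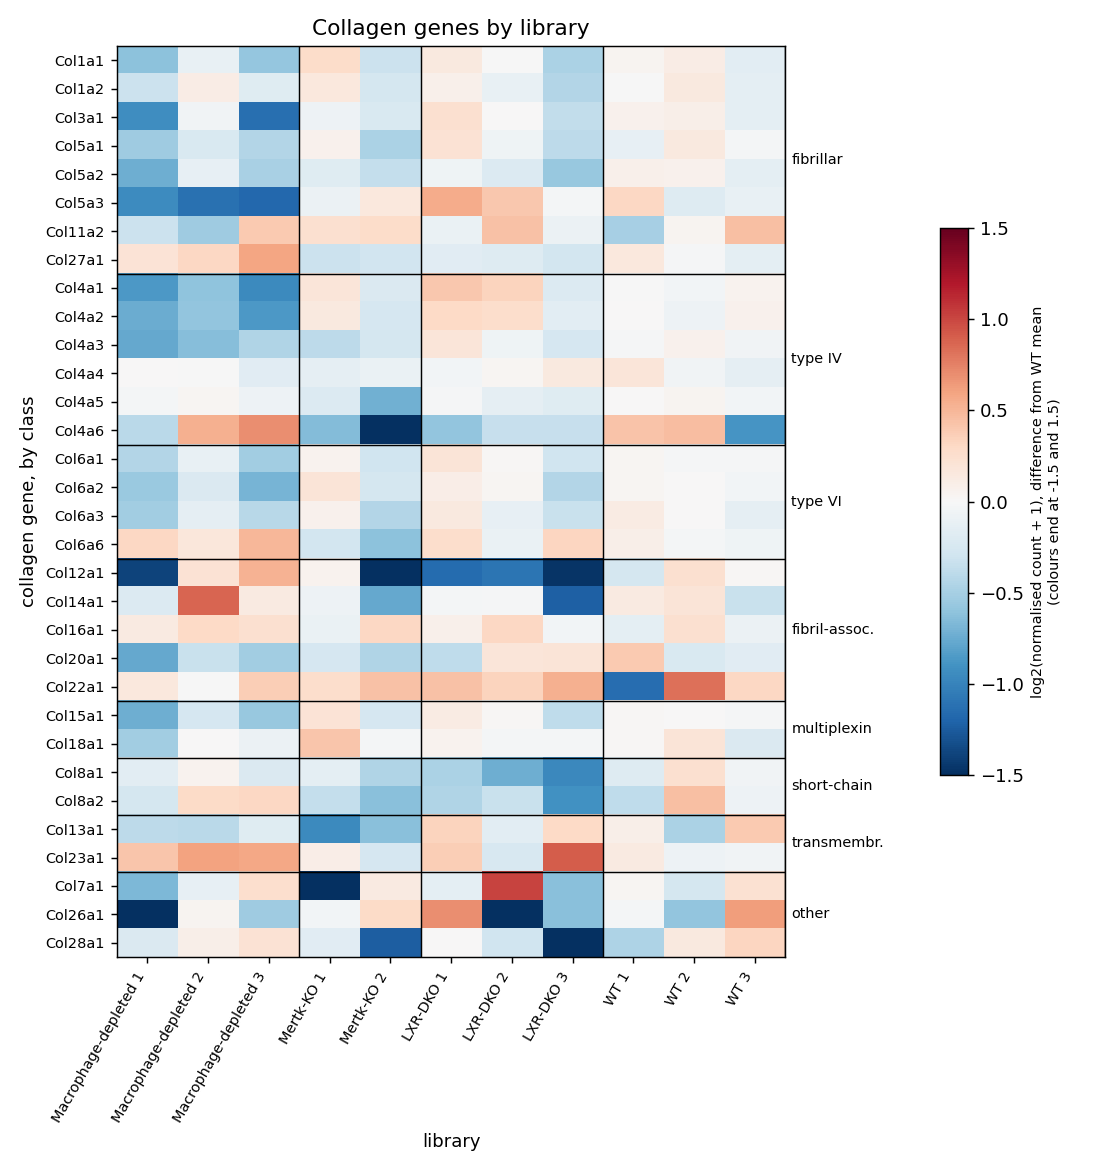
Each cell is the difference of log2(normalised count + 1) from the WT mean for 1 of the 32 tested collagens (rows, by class) in 1 of the 11 libraries (columns), with blue below and red above WT. In the depleted columns Col5a3, Col4a1, Col4a2 and Col4a3 are blue in all 3 libraries, while most other fibrillar and type VI rows are paler in library 2 than in libraries 1 and 3.

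In Mertk-KO hearts 1 of the 32 collagens passed the test against WT, where 9.27% of all genes did. That background rested on the fit, as 1287 genes were called in it, 1 with only the 2 groups, 12 with weights per library, and 164, 167 and 70 without WT libraries 1, 2 and 3. At an unadjusted p below 0.05 there were 4 collagens, all lower, or 12.5%, against 28.6% of all genes. Both Mertk-KO libraries were below all WT libraries in 7 collagens, where 21.1% of all genes were placed so, and above them in 0, where 21.4% were. The median log2 fold change was -0.17, with 26 of 32 negative, beside -0.01 for all genes, and without Mertk-KO library 2 it was -0.08 with 18 negative. With a trend of each library with transcript length and GC content removed, the collagen median was -0.04 with 21 negative, beside 0.04 for all genes.

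Col4a5 (ENSMUSG00000031274, GRCm38 chromosome X, 141475385 to 141689234, plus strand), a type IV chain known from the basement membranes of kidney and smooth muscle, was the gene that fell. It had 621 and 435 normalised counts in Mertk-KO libraries and 719, 737 and 694 in WT libraries. Both libraries were below WT, library 2 by far more than library 1, and the log2 fold change was -0.46 (SE 0.13, limma adjusted p 0.0434). It passed in 4 of 20 alternatives, and was -0.72 without Mertk-KO library 1 (limma adjusted p 0.00153) and -0.20 without Mertk-KO library 2 (limma adjusted p 0.176). It was lost in the TPM table (-0.37, limma adjusted p 0.103) and after the trend of each library with transcript length and GC content was removed (-0.29, limma adjusted p 0.129). The tested collagens have long transcripts, with a median of 6084 bases against 3381 for all genes tested, and the rank correlation across genes between transcript length and the difference from WT was -0.255 and -0.500 for Mertk-KO, against 0.0275, -0.0228 and -0.0156 for WT, as a description over genes that are not independent. Values for the LXR-DKO libraries were -0.250, -0.374 and -0.142, and for the depleted libraries -0.0365, 0.224 and 0.0604.

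Other collagens in Mertk-KO hearts stayed below the threshold. Col6a6 had 134 and 105 normalised counts in Mertk-KO libraries and 172, 159 and 155 in WT libraries (log2 fold change -0.45, SE 0.16, limma adjusted p 0.0960). Col13a1, a transmembrane chain of the neuromuscular junction, had 9.29 and 11.9 in Mertk-KO libraries and 20.1, 13.3 and 25.1 in WT libraries (-0.79, SE 0.34, adjusted p 0.152). Col7a1, the anchoring fibril chain of skin, had 2.66 and 20.5 in Mertk-KO libraries and 19.1, 15.4 and 22.0 in WT libraries, so that its log2 fold change of -1.15 (SE 0.67) came from library 1. Col28a1, a von Willebrand domain collagen known from peripheral nerve, had 14.6 and 6.47 in Mertk-KO libraries and 11.7, 18.4 and 21.0 in WT libraries (-0.70, SE 0.51).

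In LXR-DKO hearts none of the 32 collagens passed limma's test against WT and 2 had an unadjusted p below 0.05, both lower, or 6.25%. Of all genes, 0.418% passed and 11.5% had such a p. All LXR-DKO libraries were below WT in 3 collagens, where 10.7% of all genes were placed so, and above WT in 0, where 12.0% were. The median log2 fold change was -0.06, with 21 of 32 negative. Without LXR-DKO library 3, in which the median collagen was 0.32 below WT on the log2 scale, the median over the genes was 0.06 with 13 negative.

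Col8a1 (chromosome 16, 57624258 to 57754737, minus strand), a short-chain collagen of the vessel wall, had the smallest p in LXR-DKO hearts. It had 266, 222 and 189 normalised counts in LXR-DKO libraries and 324, 439 and 359 in WT libraries, with no overlap. The log2 fold change was -0.73 (SE 0.15, limma adjusted p 0.0819), and it passed in 3 of 20 alternatives. Its partner Col8a2 had 11.1, 12.1 and 7.81 in LXR-DKO libraries and 11.7, 21.5 and 14.7 in WT libraries (-0.56, SE 0.34). Col8a1 had 332, 386 and 319 in depleted libraries, within the WT range or at its edge, and was higher there than in LXR-DKO hearts by a log2 fold change of 0.62 (limma adjusted p 0.0482), a call that held in 7 of 20 alternatives and was lost without any 1 of the depleted, LXR-DKO or WT libraries. Col12a1, a fibril-associated chain, had 18.5, 19.3 and 14.6 in LXR-DKO libraries and 35.1, 50.2 and 43.0 in WT libraries (-1.24, SE 0.49, limma adjusted p 0.378), and varied between 15.5 and 61.2 normalised counts within the depleted group. Col20a1, a fibril-associated chain, had 24.3, 36.2 and 36.5 in LXR-DKO libraries and 18.3, 25.1 and 21.9 in depleted libraries, against 42.2, 27.0 and 28.3 in WT libraries. Its log2 fold change against WT was -0.002 in LXR-DKO hearts (SE 0.26, limma adjusted p 0.999). In depleted hearts, where every library was below WT, it was -0.54 and did not pass (SE 0.26, limma adjusted p 0.691).

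**Figure D4:**
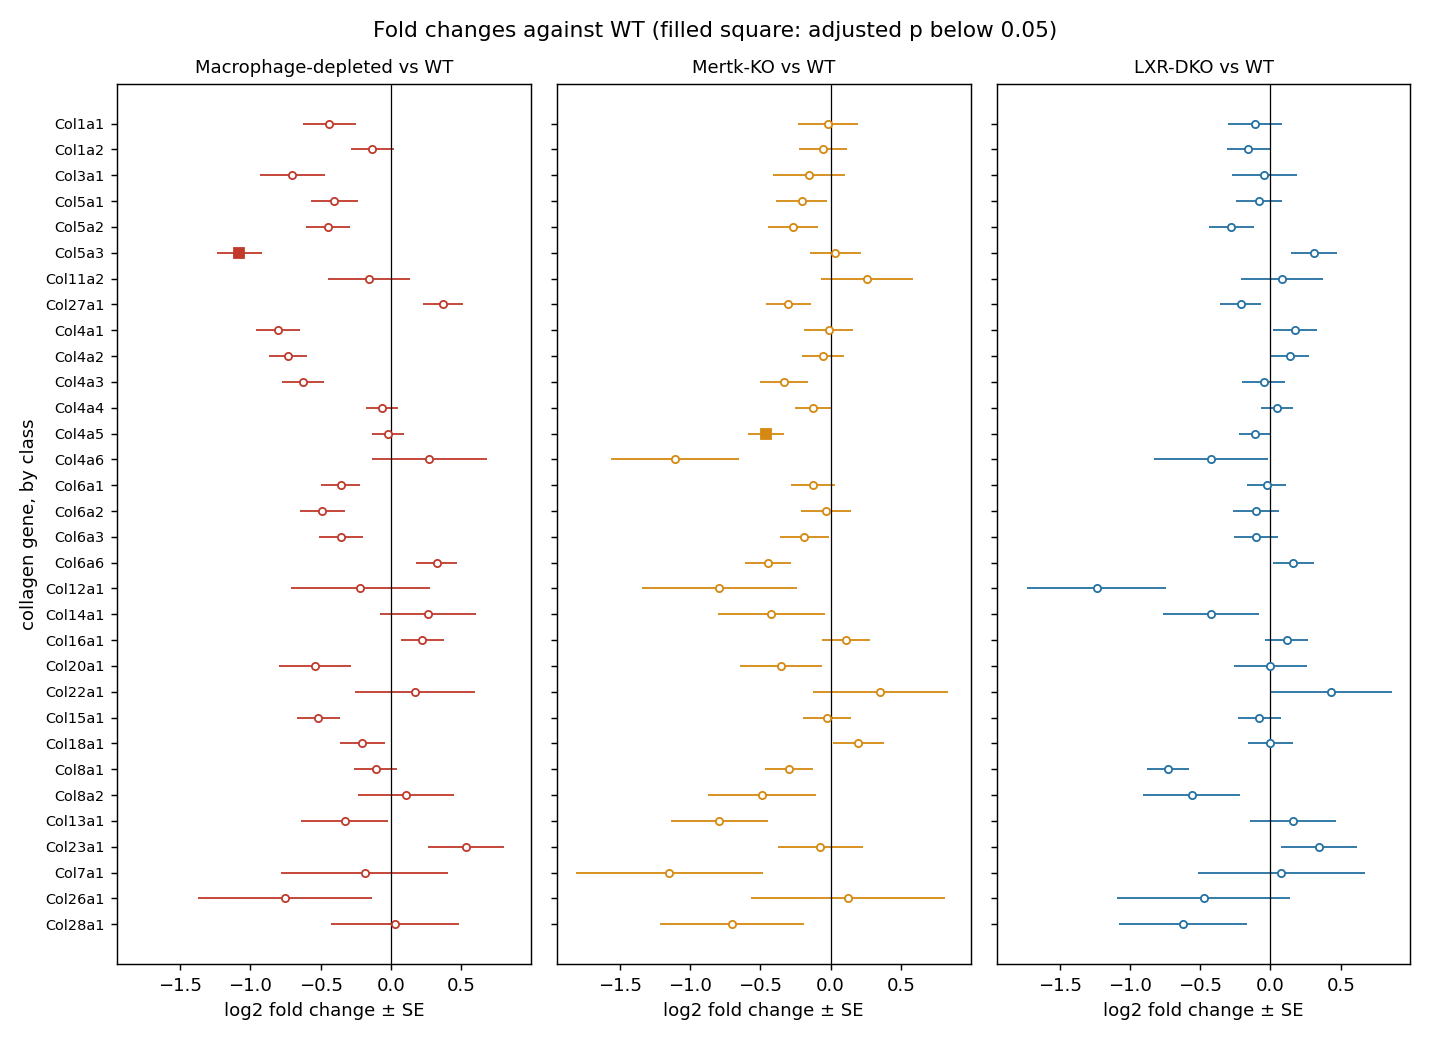
Log2 fold change against WT with its SE (x axes) for the 32 tested collagens (rows, by class) in Macrophage-depleted, Mertk-KO and LXR-DKO hearts, where filled squares mark a limma adjusted p below 0.05. Only Col5a3 in depleted hearts (-1.08) and Col4a5 in Mertk-KO hearts (-0.46) are filled, and the 3 panels share the same WT libraries.

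Set directly against each other, Macrophage-depleted and Mertk-KO hearts differed in 7 collagens, or 21.9% of the 32, close to the 21.0% of all genes called in this comparison. Col5a3, Col4a1 and Col4a2 were lower in depleted than in Mertk-KO hearts, and Col27a1 (log2 fold change 0.67), Col4a5 (0.44), Col4a6 (1.38) and Col6a6 (0.77) were higher. Against WT, the log2 fold changes of these last 4 were 0.37, -0.02, 0.28 and 0.33 in depleted hearts. In Mertk-KO hearts they were -0.30, -0.46, -1.11 and -0.45. Of 20 alternatives Col5a3 was called in 20, Col6a6 in 17, Col27a1 in 15 and Col4a5 in 11, while Col4a6 (limma adjusted p 0.0497) was called in 3 of the 18 that tested it. Against LXR-DKO hearts, 4 collagens passed, or 12.5%, where 3.24% of all genes did, with Col5a3, Col4a1 and Col4a2 lower and Col8a1 higher in depleted hearts. Col5a3, Col4a1 and Col4a2 were called in all 20 alternatives of this last comparison. Between Mertk-KO and LXR-DKO hearts no collagen passed limma's test, where 2.46% of all genes did. An unadjusted p below 0.05 was found for 4 collagens, or 12.5% of the 32, and for 2908 of all 13884 genes. The comparisons share libraries and are not independent of one another.

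Genes that make, bind or sense collagen showed no call between depleted and WT hearts, a comparison in which 0.238% of all genes were called. None passed among 24 tested genes of collagen modification and secretion, 12 of procollagen cleavage and cross-linking, 15 fibril-binding proteoglycans and glycoproteins, 15 basement membrane partners, 9 collagen receptors and 17 TGF-beta ligands and targets. An unadjusted p below 0.05 was found for 3 of 24, 2 of 12, 5 of 15, 2 of 15, 2 of 9 and 3 of 17 of them. Each of these is a larger share than the 7.53% of all genes. Serpinh1, the collagen chaperone of the endoplasmic reticulum, had 1477, 1919 and 1668 normalised counts in depleted libraries and 2232, 2288 and 2255 in WT libraries, and 3678 and 3156 in Mertk-KO and 3207, 3422 and 2141 in LXR-DKO libraries. It did not pass against WT (log2 fold change -0.43, limma adjusted p 0.479), and fell in depleted hearts by 1.02 against Mertk-KO (limma adjusted p 0.00427) and by 0.77 against LXR-DKO (limma adjusted p 0.0209). Creb3l1, a membrane-bound transcription factor of collagen secretion, had 54.9, 51.6 and 45.3 in depleted libraries and 84.0, 81.9 and 70.2 in WT libraries (-0.63, limma adjusted p 0.142), and fell by 0.92 against Mertk-KO and by 0.76 against LXR-DKO (limma adjusted p 0.00433 and 0.0133).

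Against Mertk-KO hearts, the depleted hearts were also lower in P4ha1, a prolyl hydroxylase chain (log2 fold change -0.65), and higher in Plod2 (0.57). These were among 4 lower and 2 higher genes of the 24 of modification and secretion. The counts called were 6 of these 24, 2 of 12 in cross-linking, 4 of 15 fibril-binding genes, 2 of 9 receptors and 4 of 17 in the TGF-beta list. Of the 15 tested basement membrane partners none was called. Among all genes 21.0% were called. Both called genes of cross-linking, Tgm2 and Loxl1, were lower. Of the fibril-binding genes Thbs2 (log2 fold change 0.90), Tnxb (0.62) and Lum (0.73) were higher and Sparc, a collagen-binding matricellular protein, was lower (-0.71). Of the receptors Ddr2, a fibrillar collagen receptor kinase, was higher (0.75) and the integrin chain Itga11 lower (-0.83). Of the TGF-beta list Tgfb2, Tgfbr3 and Tgfbr1 were higher and Eng was lower. Against LXR-DKO hearts Thbs2 (0.84, limma adjusted p 0.0158) and Smad2 (0.46, limma adjusted p 0.0476) were higher. They were 1 of the 15 fibril-binding genes and 1 of the 17 of the TGF-beta list, in a comparison that called 3.24% of all genes. In Mertk-KO against WT, P4ha1 rose (0.48) and Plod2 (-0.43), Mia2 (-0.37) and Ddr2 (-0.60) fell, in a comparison that called 9.27% of all genes. These calls held in 10, 9, 3 and 13 of 20 alternatives, and each was lost with only the 2 groups, with weights per library and without any 1 of the WT libraries. No gene of these lists passed in LXR-DKO against WT, where 0.418% of all genes did. In the order above, 4 of 24, 0 of 12, 2 of 15, 1 of 15, 3 of 9 and 1 of 17 had an unadjusted p below 0.05, beside 11.5% of all genes.

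Levels of some cell type markers differed between groups as well. The summed level of the 10 endothelial markers was 13150 to 13948 normalised counts in depleted libraries and 14547 to 15601 in WT libraries, with no overlap, 9 of 10 lower and a median log2 fold change of -0.15. None of these 10 passed limma's test against WT, and 4 had an unadjusted p below 0.05, where 7.53% of all genes did. Against Mertk-KO hearts 4 of the 10 were called lower in depleted hearts (Cldn5, Egfl7, Esam and Tie1), where 21.0% of all genes were called. Against LXR-DKO hearts Cldn5 alone was called lower, in 11 of 20 alternatives, where 3.24% of all genes were called. An unadjusted p below 0.05 was found for 8 and 6 of the 10, and for 5031 and 2851 of all 13884 genes. The summed level of the 10 fibroblast markers was 20963 to 27998 in depleted libraries and 20019 to 21995 in WT libraries, with 7 of 9 tested higher, a median of 0.09 and Lamp5 without a read. Among them Meox1 fell, with 87.3, 101 and 124 normalised counts in depleted libraries and 187, 183 and 178 in WT libraries (log2 fold change -0.82, limma adjusted p 0.0426, called in 10 of 20 alternatives). The 10 smooth muscle and pericyte markers summed to 20145 to 21626 in depleted and 19559 to 20431 in WT libraries, and the 7 activated fibroblast markers to 1967 to 3020 in depleted and 1893 to 2696 in WT libraries. All 8 resident macrophage markers were lower, with Timd4 (-3.61) and Cd163 (-3.42) past the threshold. In Mertk-KO libraries the endothelial markers summed to 15269 to 16400, the fibroblast markers to 22041 to 25362 and the smooth muscle and pericyte markers to 17174 to 17598, the last of these below every WT library. In LXR-DKO libraries the same sums were 14118 to 16467, 18564 to 21501 and 17664 to 20061. The activated fibroblast markers summed to 3114 to 3379 in LXR-DKO libraries, above every WT library, though 2 of 6 tested were higher and 4 lower. Their median log2 fold change was -0.43. Most of the LXR-DKO sums was Acta2, which is also on the smooth muscle and pericyte list. It had 2385, 2339 and 2668 normalised counts in LXR-DKO and 1560, 1188 and 887 in WT libraries (log2 fold change 1.06, limma adjusted p 0.104). In depleted libraries mesothelial and epicardial markers summed to 218 to 266, against 50 to 210 in WT, and erythrocyte markers to 3302 to 4862, against 4994 to 8508. No gene of these 3 lists passed limma's test in the comparison named. The part of these markers in the collagen differences was not tested.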

How the data were processed

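Poly-A RNA of whole hearts was amplified with a single-cell kit before library preparation, per the labels' protocols, and reads carry no molecular identifiers in these tables. Per the submitters' processing notes, the tools were kallisto 0.43.1, RSEM 1.2.20, cutadapt and CASAVA 1.8.2 with genome build GRCm38. The sources used here do not say what each tool did, how values were scaled or which annotation was used. The authors deposited 2 tables of 11 libraries, each a signal per gene: normalised counts (35584 genes), which hold an added 0.5 read in every value as the values themselves show, and normalised TPM (33318 genes). The added part was removed and values were put on the scale of reads, called normalised counts here. Between 57.2% and 61.5% of low values were whole within 0.01 read, so the values are estimated reads and no test of whole counts was run. A gene without a read can have up to 3 reads' worth, 2.12 to 4.22 normalised counts, and this floor covers counting error only.

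Genes averaging at least 10 normalised counts (13884) were tested with limma 3.58.1 in R 4.3.3 on log2(normalised count + 1) in 1 model of the 4 groups with 7 residual degrees of freedom, two-sided, with Benjamini-Hochberg adjustment over all genes of a comparison and a threshold of 0.05. The log2(value + 1) scale understates changes of low genes. The procedure was tested on simulated data with known changes and independent noise of the same spread in all genes. That test does not cover shifts of whole libraries or genes of unequal spread. The deposited TPM values served to compare levels between genes and as an alternative. Gene positions come from the GENCODE annotation of GRCm38, and start windows from RefSeq. The alternatives were another pseudocount, other minimums, the TPM table, median-of-ratios scaling, fits of 2 groups, weights per library, the replicate number as a block, removal of a length and GC trend, and leaving out each library.

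The members follow from the symbol rule alone, but that rule and the lists were chosen with earlier results of these data known. Values per library are given for collagens past the threshold against WT, for the 8 highest by TPM and for up to 2 members of each class with the smallest p. Called members of each partner list are named, up to 4 per comparison. Replicate numbers do not pair libraries, since no label ties them together.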

Additional observations from a re-analysis of the deposited data

How the results depend on the processing

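Neither Col5a3 (depleted) nor Col4a5 (Mertk-KO) against WT changed sign under any alternative run. For depleted against WT hearts the count of called collagens was 1, and it was 0 in the TPM table, 2 with median-of-ratios scaling, 3 with only the 2 groups, 4 with weights per library, 3 with the length and GC trend removed, and 0 to 3 when 1 library was left out. For Mertk-KO against WT it was 1, and 0 with no minimum, in the TPM table, with only the 2 groups, with weights per library and with the length and GC trend removed, and 0 to 1 with 1 library left out (Col7a1 in place of Col4a5 without Mertk-KO library 2). For LXR-DKO against WT it was 0, 1 with weights per library (Col8a1) and 0 to 1 with 1 library left out. For depleted against Mertk-KO it was 7, and 3 in the TPM table, 1 with only the 2 groups, 1 with weights per library, 4 with the length and GC trend removed and 4 to 10 with 1 library left out. For depleted against LXR-DKO it was 4, 13 with weights per library and 3 to 6 with 1 library left out. For Mertk-KO against LXR-DKO it was 0, and 0 to 2 with 1 library left out. Calls among all 13884 genes moved as well. For depleted against WT they numbered 33, and 66 with only the 2 groups and 219 with weights per library. For depleted against Mertk-KO they numbered 2911, and 146 with only the 2 groups and 438 with weights per library. For depleted against LXR-DKO they numbered 450, and 2043 with weights per library. For LXR-DKO against WT they numbered 58, and 593 with weights per library. The cause of these moves was not tested.

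With the replicate number as a block, called collagens numbered 1 for depleted and 0 for Mertk-KO and LXR-DKO against WT, 6 for depleted against Mertk-KO, 3 for depleted against LXR-DKO and 0 for Mertk-KO against LXR-DKO. Deviations of same-numbered libraries correlated between -0.0937 and 0.107, so these numbers were not treated as pairs.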

Other observations

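Ratios between collagens differed between libraries of a group. The summed TPM of Col4a1 and Col4a2 over that of Col1a1, Col1a2 and Col3a1 was 1.13, 0.777 and 1.11 in Macrophage-depleted libraries, 1.30 and 1.33 in Mertk-KO, 1.45, 1.52 and 1.39 in LXR-DKO and 1.12 to 1.28 in WT libraries. The ratio of Col4a1 to Col4a2 was 1.44, 1.49 and 1.38 in depleted libraries and 1.62, 1.63 and 1.55 in WT libraries.

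Atrial markers, which reflect how much atrium a heart sample holds, summed to 3361, 5260 and 6841 normalised counts in depleted, 3199 and 1746 in Mertk-KO, 4333, 17900 and 1700 in LXR-DKO and 26327, 7948 and 3696 in WT libraries. The adipocyte list had 5 of 6 tested genes lower in depleted than in WT hearts, with a median log2 fold change of -1.73. None passed limma's test, and 5 had an unadjusted p below 0.05, where 7.53% of all genes did. The summed level of the 8 listed genes was not lower, at 5673, 5831 and 6969 normalised counts in depleted and 5540, 6333 and 5830 in WT libraries. Against LXR-DKO hearts 5 of the 6 were called lower in depleted hearts (Car3, Cfd, Cidec, Adipoq and Plin1), where 3.24% of all genes were called. Car3 and Cfd were called there in every alternative that tested them, Cidec and Adipoq in 13 of 19 each. Against Mertk-KO hearts 3 of the 6 were called lower (Cfd, Car3 and Cidec), where 21.0% of all genes were called.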
